A study of Mus musculus with 11 samples.

Results

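The 55 genes described here encode ribosome biogenesis factors, the proteins that copy ribosomal RNA genes, process and modify the precursor RNA, and assemble it with ribosomal proteins. They are the rows of the pancreas and adipose gene tables that carry one of 55 symbols, a list that was drawn up with earlier results of these data known. In all 54532 genes are listed for the pancreas and 46078 for adipose tissue. The values come from wild type male mice of strain C57BL/6 by the labels (C57BL/6J in the study's methods), labelled as 16 weeks old, in 4 groups. Control mice ate normal chow for 12 weeks and received saline, and they gave 2 pancreas and 3 epididymal adipose libraries. Mice with obesity-related alcohol-induced acute pancreatitis (OA-AP, the condition labelled Model) ate a high-fat diet for 12 weeks, then received ethanol at 2 g/kg in 2 intraperitoneal injections 1 h apart. They gave 3 pancreas and 3 adipose libraries. Lean mice given ethanol and obese mice given saline are not among these groups, so the parts of the diet, the ethanol and the pancreatitis cannot be told apart. The labels do not say whether the libraries of 1 tissue and condition came from separate animals, and if they did not, the p-values measure technical spread.

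Ribosomes are built mainly in the nucleolus. RNA polymerase I copies a long precursor RNA, small nucleolar ribonucleoproteins (snoRNPs) of the box C/D and box H/ACA kinds methylate it and turn uridines into pseudouridines, and a large complex called the small subunit processome cuts out the part that becomes the 40S subunit. Other factors carry the 40S and 60S precursors through folding, export and last trimming. The genes of these factors are known as a group that growing cells express strongly, and many are known targets of the transcription factor Myc. The exocrine pancreas is among the tissues with the most protein synthesis, and its acinar cells are dense with ribosomes.

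Counts on genes ranged from 14188832 to 17238919 per pancreas library and from 20825177 to 27928097 per adipose library. A list of 25 acinar cell genes held 68.7% and 70.3% of all counts in the control pancreas libraries and 52.6% to 54.9% in the OA-AP ones. Expression is therefore given as CPM, a gene's count relative to its library's total, with that total adjusted by edgeR's TMM factors, which allow for a few genes taking a large share. These factors were 0.79 and 0.70 in control pancreas and 1.11 to 1.32 in OA-AP pancreas. One adipose library, control replicate 2, also held 0.92% acinar counts, against 0.002% or less in the other 5. Adipocyte genes summed to between 34851 and 45487 CPM in the adipose libraries and to between 37.9 and 103 CPM in the pancreas libraries, so each tissue carried the markers of its label.

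Ribosome biogenesis factors were higher in OA-AP than in control adipose tissue almost without exception. A gene was called changed at a Benjamini-Hochberg adjusted p-value under 0.05 in edgeR's quasi-likelihood test, adjusted over all genes tested, with a fold change of at least 1.5. On this rule 49 of the 55 members (89.1%) were higher and 0 were lower, where 12.1% of the 15839 genes tested in adipose tissue were higher and 13.0% lower. At an unadjusted p under 0.05 there were 54 members, and the log2 fold change of all 55 was above 0. In 54 members (98.2%) every OA-AP library lay above every control library, which held for 26.4% of all genes. The median log2 fold change was 1.00, a 2.01-fold difference, beside -0.01 for all genes tested. In bulk tissue, more RNA per cell and more cells of a type rich in that RNA cannot be told apart.

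The summed level of the 55 members was 1620.2, 1770.2 and 1760.5 CPM in the control adipose libraries and 4063, 3039 and 3694 CPM in OA-AP. The groups were far apart, with means of 1717 ± 83.96 and 3599 ± 519 CPM (SD, n = 3 each). The OA-AP libraries also differed from each other: replicate 1 held the highest value of its group in 53 of the 55 members and replicate 2 the lowest in 53. The share of all genes highest or lowest in these libraries was not counted. Measured against the control mean, the median member was 2.24-fold higher in replicate 1, 1.84-fold in replicate 2 and 2.11-fold in replicate 3. Without control replicate 2, the library with acinar counts, 48 members were called higher.

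**Figure D1:**
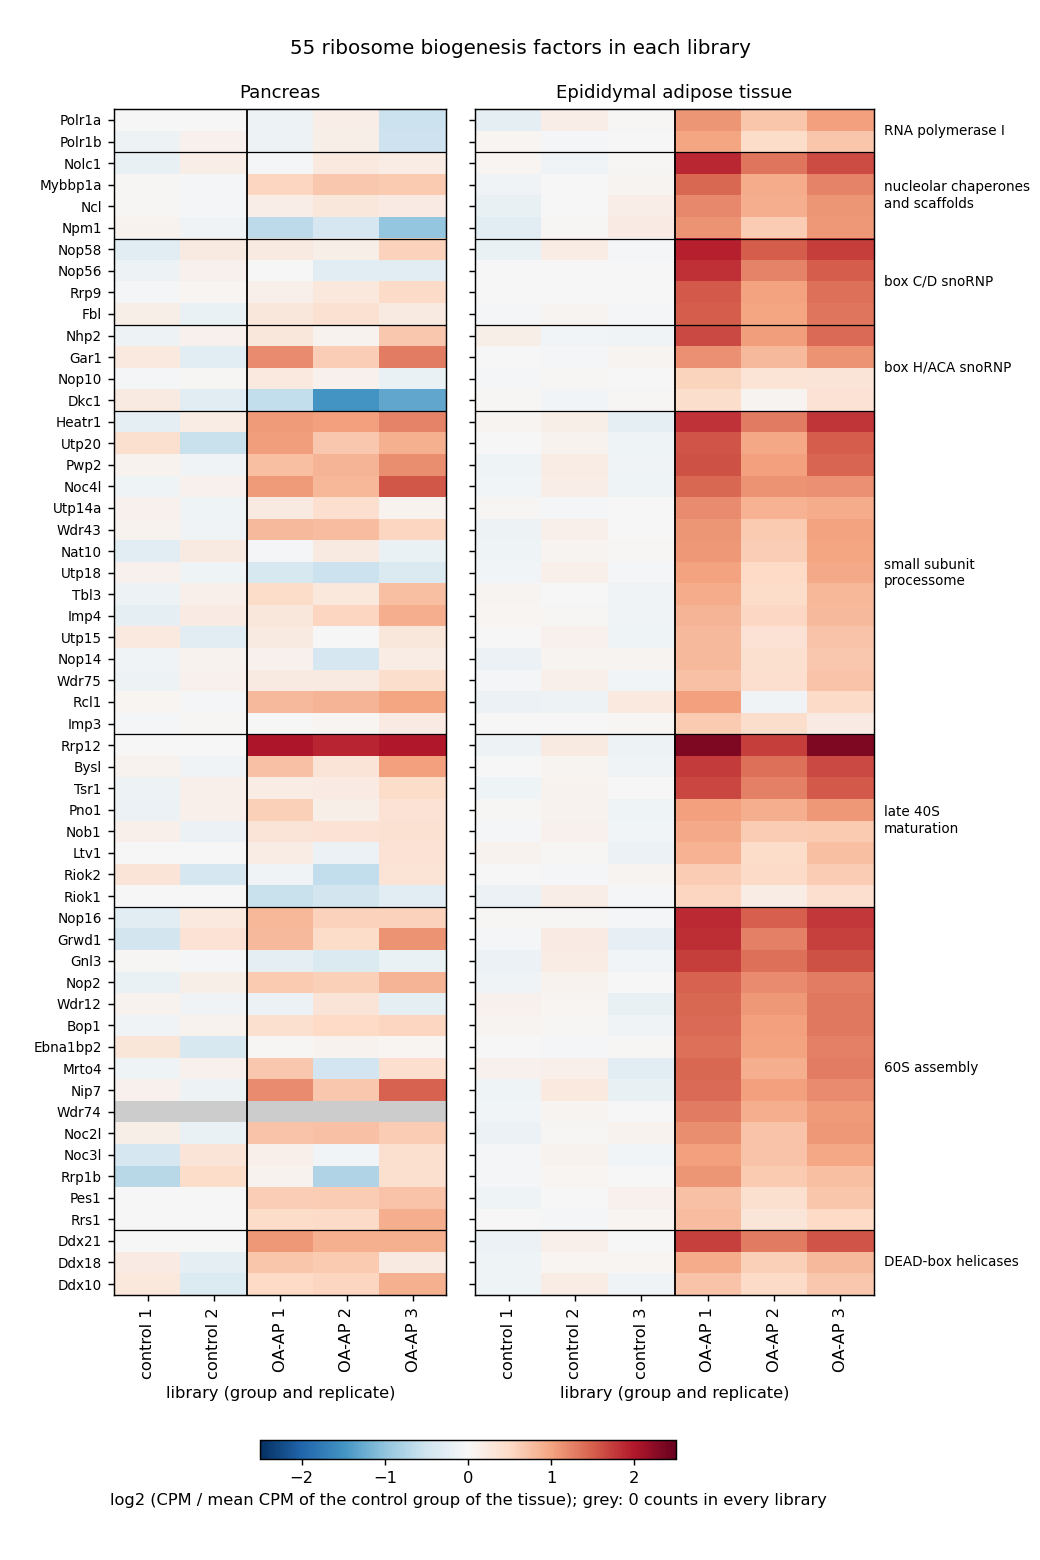
Heat map of the 55 members (rows, grouped by role) in each pancreas and adipose library (columns); colour is log2 of the CPM over the mean CPM of that tissue's control group, and grey marks 0 counts. All 3 OA-AP adipose columns are red in nearly every row, while the OA-AP pancreas columns mix red and blue.

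Both RNA polymerase I subunits among the members rose in adipose tissue. Polr1a, the largest catalytic subunit, had 32.6, 43.3 and 39.3 CPM in control adipose tissue and 82.7, 62.3 and 77.7 CPM in OA-AP. It rose 1.93-fold (log2 0.95 ± 0.15 SE, edgeR adjusted p = 0.00339). Polr1b, the second-largest subunit, had 17.4, 16.5 and 16.8 CPM in control and 33.6, 23.3 and 27.2 CPM in OA-AP adipose tissue, and rose 1.66-fold (log2 0.73 ± 0.14 SE, edgeR adjusted p = 0.00788). Neither gene's groups overlapped. In the pancreas neither was called. Polr1b had 7.21 and 8.48 CPM in control and 7.19, 8.64 and 5.49 CPM in OA-AP pancreas, where the groups overlapped (log2 fold change -0.14 ± 0.24 SE, edgeR adjusted p = 0.678). Scaled by library totals alone, which moved the median of all pancreas genes tested from a log2 fold change of 0.04 to 0.75, Polr1b stood at 0.58. Relative to that median it was at -0.16, and at -0.18 with TMM factors.

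Of the nucleolar chaperones and scaffolds, all 4 rose in adipose tissue. Nolc1, a phosphoprotein that accompanies snoRNPs between nucleolus and Cajal bodies, rose most of the 4. It had 38.2, 35.1 and 38.2 CPM in control and 137, 93.9 and 115 CPM in OA-AP adipose tissue, a 3.11-fold difference (log2 1.63 ± 0.14 SE, edgeR adjusted p = 0.000576). Mybbp1a, a nucleolar protein that binds Myb and takes part in precursor processing, had 82.5, 87.5 and 91.7 CPM in control and 237, 166 and 205 CPM in OA-AP (2.32-fold, edgeR adjusted p = 0.00139). Ncl, nucleolin, an abundant RNA-binding protein of the nucleolus, had 189, 212 and 240.2 CPM in control and 488, 400.1 and 457 CPM in OA-AP (2.098-fold, edgeR adjusted p = 0.00181). In each of these genes the lowest OA-AP library was well above the highest control library.

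Npm1, nucleophosmin, a histone and ribosome chaperone, was the only member called in opposite directions in the tissues, though not when scaled by library totals alone. In adipose tissue it had 124, 155 and 176 CPM in control and 331, 236 and 322 CPM in OA-AP, and it rose 1.95-fold (log2 0.97 ± 0.18 SE, edgeR adjusted p = 0.00692). In the pancreas it had 98.2 and 86.4 CPM in control and 58.8, 68.8 and 47.02 CPM in OA-AP, and it fell 1.59-fold (log2 -0.67 ± 0.17 SE, edgeR adjusted p = 0.021). No library of either group overlapped the other group in either tissue. With library totals alone the log2 fold change in the pancreas was 0.05 and not called, but relative to the median of all genes Npm1 stood at -0.70 with library totals and at -0.71 with TMM factors. The call was also lost without either control library and without OA-AP replicate 1 or 3. A ratio within each library does not depend on the scaling: Npm1 CPM over Ncl CPM was 0.886 and 0.813 in control pancreas and 0.486, 0.523 and 0.377 in OA-AP pancreas. The same ratio was 0.656, 0.731 and 0.733 in control adipose tissue and 0.677, 0.589 and 0.705 in OA-AP, where the groups overlapped. These ratios were chosen after the values of both genes were seen, and pseudogene copies of Npm1 and Ncl make the count of either gene uncertain.

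The 4 box C/D members, which form the machinery of 2′-O-methylation or, in the case of Rrp9, bind the U3 snoRNA, were all called in adipose tissue and none was called in the pancreas. Nop58, a core protein of these particles, had 22.8, 28.9 and 24.6 CPM in control and 98.1, 72.99 and 84.6 CPM in OA-AP adipose tissue (3.35-fold, log2 1.74 ± 0.14 SE, edgeR adjusted p = 0.000467). Nop56, its partner, had 36.3, 36.4 and 36.8 CPM in control and 129.9, 86.3 and 104 CPM in OA-AP (2.93-fold, log2 1.55 ± 0.15 SE, edgeR adjusted p = 0.000732). The 3 control values of Nop56 lay within 1 CPM of each other, and the OA-AP values were spread more widely. Fbl, fibrillarin, the methyltransferase itself, had 23.3, 24.8 and 23.3 CPM in control and 68.4, 47.4 and 60.4 CPM in OA-AP (2.47-fold, edgeR adjusted p = 0.00106). In the pancreas Nop56 had 13.6 and 16.2 CPM in control and 14.96, 12.4 and 12.2 CPM in OA-AP, with overlapping groups. Fbl had 11.6 and 9.37 CPM in control and 12.8, 13.6 and 12.3 CPM in OA-AP pancreas, where the groups did not overlap but the test did not call it (log2 fold change 0.30 ± 0.17 SE, edgeR adjusted p = 0.206).

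The 4 box H/ACA members belong to 1 particle, which makes pseudouridine and also protects telomerase RNA, yet they did not share 1 pattern. Nhp2 rose in adipose tissue only by the call, from 22.5, 19.5 and 19.2 CPM to 63.7, 41.97 and 54.7 CPM (2.62-fold, edgeR adjusted p = 0.00139). Gar1, a core protein, rose in both tissues. It had 10.4, 10.2 and 10.99 CPM in control and 23.4, 18.5 and 22.9 CPM in OA-AP adipose tissue (2.05-fold, edgeR adjusted p = 0.00154). In the pancreas it had 4.72 and 3.29 CPM in control and 9.13, 6.12 and 9.73 CPM in OA-AP (2.07-fold, log2 1.05 ± 0.29 SE, edgeR adjusted p = 0.0249). The groups were apart in both tissues. Nop10, the smallest protein of the particle, had a log2 fold change of 0.41 ± 0.09 SE in adipose tissue and 0.07 ± 0.18 SE in the pancreas and was called in neither.

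Dkc1, dyskerin, the pseudouridine synthase of the particle, fell in the pancreas. It had 7.47 and 5.38 CPM in control and 4.2, 2.29 and 2.61 CPM in OA-AP pancreas (2.12-fold lower, log2 -1.08 ± 0.32 SE, edgeR adjusted p = 0.0351), from 40 to 87 counts in each library. Every OA-AP library lay below both controls, and the direction held with library totals alone, though the call did not. The call was also lost without either control library and without OA-AP replicate 2. In adipose tissue Dkc1 had 39.4, 36.8 and 39.5 CPM in control and 52.4, 40.2 and 49.8 CPM in OA-AP (log2 fold change 0.30 ± 0.11 SE, edgeR adjusted p = 0.0753), which was not called. The ratio of Dkc1 to Gar1 within a library, also chosen after the values were seen, was 1.58 and 1.64 in control pancreas and 0.460, 0.374 and 0.269 in OA-AP pancreas. In adipose tissue it was 3.77, 3.62 and 3.59 in control and 2.24, 2.17 and 2.18 in OA-AP. In both tissues every OA-AP ratio lay below every control ratio.

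**Figure D2:**
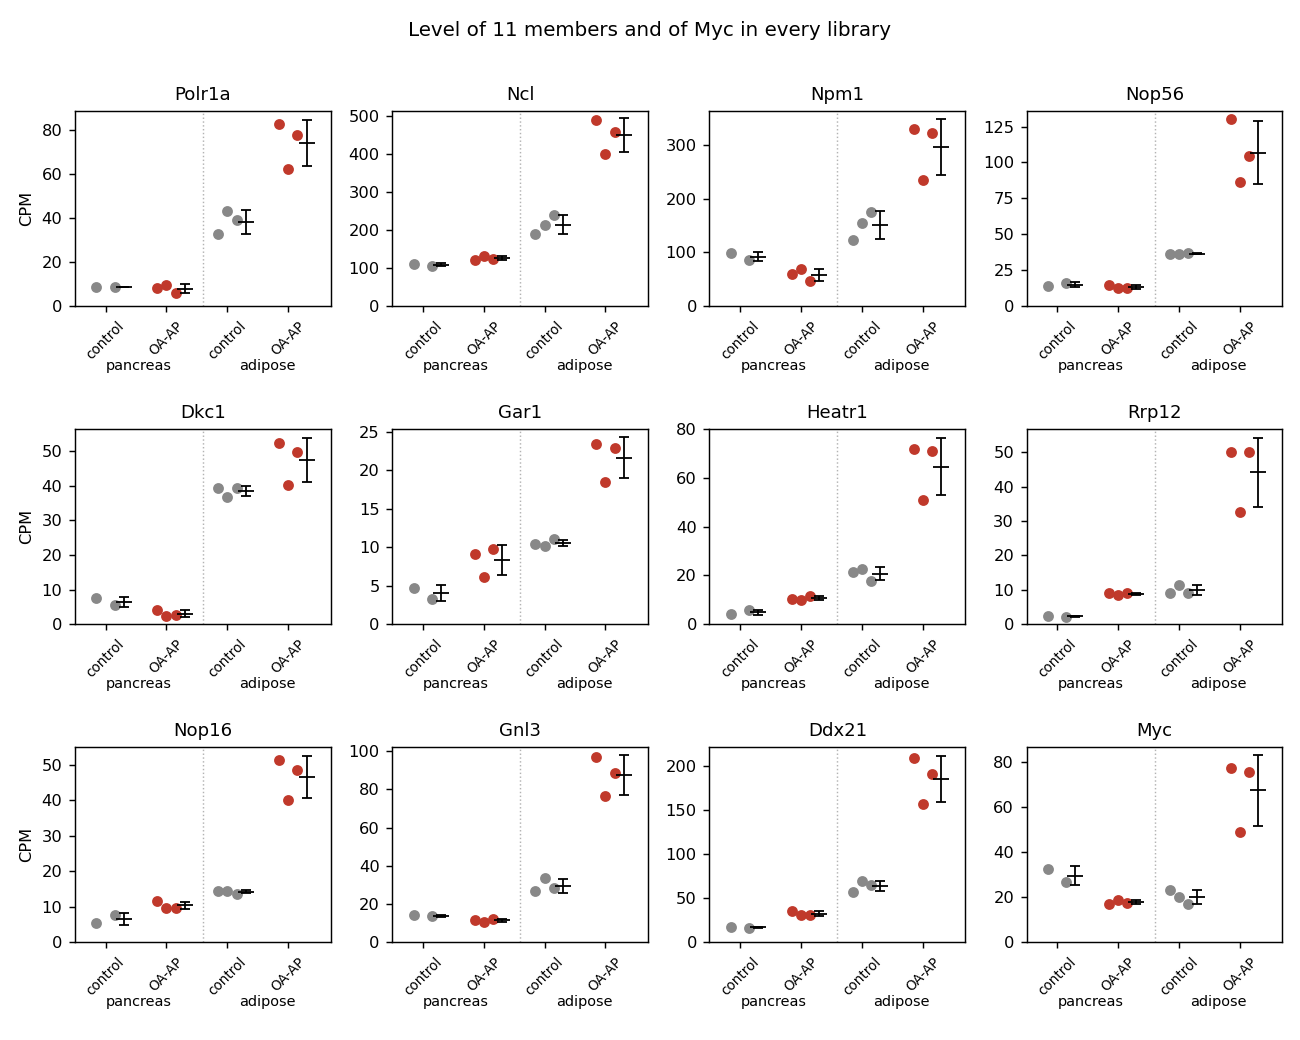
CPM of 11 members and of Myc in every library (points; grey control, red OA-AP), with the mean and SD of each group as black bars, each panel on its own axis from 0. Rrp12, Heatr1, Ddx21 and Gar1 are higher in OA-AP in both tissues, and Dkc1 is lower in the pancreas. Npm1 and Myc are higher in adipose tissue and lower in the pancreas. With library totals alone their pancreas log2 fold changes were 0.05 and -0.04, and neither was called.

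The small subunit processome, with 15 members, had 13 called higher in adipose tissue (86.7%) and 5 in the pancreas (33.3%), and none lower. Of all genes tested, 12.1% were called higher in adipose tissue and 16.2% in the pancreas. Heatr1, a large scaffold protein also needed for transcription by RNA polymerase I, was called in both. It had 21.6, 22.7 and 17.7 CPM in control and 71.9, 51.2 and 71.2 CPM in OA-AP adipose tissue (3.14-fold, log2 1.65 ± 0.16 SE, edgeR adjusted p = 0.00079). In the pancreas it had 4.205 and 5.58 CPM in control and 10.2, 9.95 and 11.6 CPM in OA-AP (2.17-fold, log2 1.11 ± 0.21 SE, edgeR adjusted p = 0.00543). Each OA-AP pancreas library was well above both controls.

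Noc4l, a partner of Nop14 in the processome, also rose in both tissues. It had 11.9, 13.9 and 11.5 CPM in control and 33.6, 27.02 and 27.4 CPM in OA-AP adipose tissue, and 2.66 and 3.09 CPM in control and 5.99, 5.09 and 8.47 CPM in OA-AP pancreas. The changes were 2.36-fold and 2.27-fold (edgeR adjusted p = 0.00104 and 0.0191), so the size was about the same. Wdr43, a subunit that joins early, rose 1.91-fold in adipose tissue and 1.63-fold in the pancreas, where it had 9.01 and 7.98 CPM in control and 14.9, 14.4 and 12.3 CPM in OA-AP (edgeR adjusted p = 0.0171). Pwp2, of the same U3-containing complex, rose 2.59-fold in adipose tissue and 1.91-fold in the pancreas, there from 2.57 and 2.29 CPM to 4.09, 4.405 and 5.49 CPM (edgeR adjusted p = 0.036). Of these genes Pwp2 had the fewest counts, with 23 to 105 in a pancreas library.

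Rcl1, a cyclase-like protein of the processome, was called in the pancreas and not in adipose tissue. It had 7.64 and 7.18 CPM in control and 12.97, 13.4 and 14.7 CPM in OA-AP pancreas (1.85-fold, edgeR adjusted p = 0.00533). In adipose tissue it had 32.8, 33.3 and 42.8 CPM in control and 73.6, 34.2 and 50.7 CPM in OA-AP, the only member there whose groups overlapped (log2 fold change 0.54 ± 0.27 SE, edgeR adjusted p = 0.162). Replicate 2 lay within the control values and replicate 1 well above them. Utp14a, which activates the helicase Dhx37, had 13.3, 12.8 and 13.2 CPM in control and 29.6, 24.1 and 24.8 CPM in OA-AP adipose tissue (1.997-fold, edgeR adjusted p = 0.00128). The other 9 genes of this group had log2 fold changes between 0.44 (Imp3) and 1.38 (Utp20) in adipose tissue, and all but Imp3 were called. In the pancreas they lay between -0.43 (Utp18) and 0.86 (Utp20), and none was called.

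Rrp12, a HEAT-repeat protein that helps export both subunits and that lies at chr19:41862852-41896153 on the minus strand in GRCm38, changed more than any other member in both tissues. It had 9.04, 11.5 and 8.99 CPM in control and 50.02, 32.7 and 49.999 CPM in OA-AP adipose tissue (4.49-fold, log2 2.17 ± 0.20 SE, edgeR adjusted p = 0.000699). In the pancreas it had 2.23 and 2.19 CPM in control and 8.98, 8.35 and 8.94 CPM in OA-AP (3.95-fold, log2 1.98 ± 0.22 SE, edgeR adjusted p = 0.000621). The 3 OA-AP pancreas libraries lay within 1 CPM of each other and far above both controls. This call held in the pancreas under all 14 other settings tried, over which its adjusted p was 0.0158 at most.

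Apart from Rrp12, the late 40S factors changed in adipose tissue and were not called in the pancreas. Bysl, bystin, which takes part in trimming and export of the 40S precursor, had 15.2, 15.8 and 14.2 CPM in control and 50.6, 39.4 and 47.3 CPM in OA-AP adipose tissue (3.04-fold, edgeR adjusted p = 0.00035). Tsr1, a GTPase-like factor that blocks early joining of translation factors, had 9.74, 11.1 and 10.5 CPM in control and 33.1, 25.1 and 30.2 CPM in OA-AP (2.82-fold, edgeR adjusted p = 0.000562). Pno1, which holds the 3′ end of the 18S precursor, had 27.9, 28.9 and 25.3 CPM in control and 55.6, 51.4 and 57.6 CPM in OA-AP (2.01-fold, edgeR adjusted p = 0.000646). No groups of these genes overlapped in adipose tissue. The nuclease Nob1, the adaptor Ltv1 and the kinase Riok2 rose between 1.51-fold and 1.68-fold there. The kinase Riok1 was not called in adipose tissue (log2 fold change 0.39 ± 0.13 SE) or in the pancreas (log2 fold change -0.43 ± 0.21 SE), where all 3 OA-AP libraries lay below the controls.

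The 60S assembly group, also of 15 genes, had 14 called higher in adipose tissue, the exception being Rrs1, which rose 1.45-fold, under the fold limit. Nop16 had the smallest adjusted p of the 55 there, with 14.4, 14.4 and 13.7 CPM in control and 51.4, 39.95 and 48.5 CPM in OA-AP (3.29-fold, log2 1.72 ± 0.12 SE, edgeR adjusted p = 0.000269). Gnl3, nucleostemin, a GTP-binding protein abundant in stem cells, had 26.6, 33.4 and 28.2 CPM in control and 97.03, 76.4 and 88.8 CPM in OA-AP (2.97-fold, edgeR adjusted p = 0.000474). Nop2, a methyltransferase of the 28S ribosomal RNA, had 22.2, 25.04 and 23.2 CPM in control and 65.6, 53.6 and 56.97 CPM in OA-AP (2.5001-fold, edgeR adjusted p = 0.000434). The groups of all 3 genes were far apart. Bop1, Pes1 and Wdr12, which work as 1 complex in 28S processing, rose 2.399-fold, 1.53-fold and 2.44-fold. Pes1, close to the fold limit, lost its call without control replicate 1 and without OA-AP replicate 1 or 3.

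In the pancreas 6 of the 14 genes of this group that could be tested (42.9%) were called higher, against 16.2% of all genes tested. Pes1 had 12.4 and 12.5 CPM in control and 19.1, 19.4 and 20.5 CPM in OA-AP (1.58-fold, edgeR adjusted p = 0.00894). Noc2l, a partner of Noc3l in moving 60S precursors out of the nucleolus, had 20.6 and 16.7 CPM in control and 30.6, 30.9 and 28.8 CPM in OA-AP (1.61-fold, edgeR adjusted p = 0.00984). Nip7, needed for precursor processing, had 5.06 and 4.29 CPM in control and 10.6, 7.49 and 12.97 CPM in OA-AP (2.21-fold, edgeR adjusted p = 0.0151). In these genes each OA-AP library was above both controls. Nop2 rose from 5.06 and 6.28 CPM to 8.93, 8.58 and 10.3 CPM, Nop16 from 5.32 and 7.68 CPM to 11.6, 9.67 and 9.73 CPM, and Rrs1, which helps load the 5S particle, from 9.01 and 8.77 CPM to 12.2, 12.5 and 16.6 CPM. Bop1 had a log2 fold change of 0.48 ± 0.15 SE and an edgeR adjusted p of 0.0428, under the fold limit, and Wdr12 had a log2 fold change of -0.00.

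Wdr74, a 60S factor at chr19:8735827-8740624, was listed at 0 counts in all 5 pancreas libraries but had 372 to 718 counts in each adipose library. The tables were not made with the same gene list, since 45260 genes are in both, and the 0 gives no level for this gene in the pancreas. In adipose tissue Wdr74 rose 2.14-fold (edgeR adjusted p = 0.00128).

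The DEAD-box helicases, enzymes that remodel RNA, all rose in adipose tissue. Ddx21, which also acts on transcription by RNA polymerases I and II, had 57.4, 69.3 and 64.3 CPM in control and 208, 157 and 191 CPM in OA-AP (2.91-fold, log2 1.54 ± 0.13 SE, edgeR adjusted p = 0.000562). Ddx18 rose 1.72-fold, from 32.4, 35.9 and 35.8 CPM to 66.2, 52.3 and 61.01 CPM, and Ddx10 1.54-fold, from 20.1, 24.6 and 20.4 CPM to 35.5, 30.4 and 34.4 CPM. Ddx10 lost its call without control replicate 1. In the pancreas Ddx21 had 16.8 and 16.5 CPM in control and 35.2, 31.01 and 30.9 CPM in OA-AP (1.95-fold, log2 0.96 ± 0.14 SE, edgeR adjusted p = 0.0019), with the groups far apart. Ddx18 and Ddx10 were not called there (log2 fold changes 0.54 ± 0.24 SE and 0.65 ± 0.29 SE), although neither gene's groups overlapped.

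Over the pancreas as a whole the members' changes were smaller. The log2 fold change was above 0 in 43 of the 54 members tested (79.6%) and in 51.9% of all genes. Of the 54 members tested, 15 were called higher (27.8%) and 2 lower (3.7%), where 16.2% of the 12884 genes tested were higher and 13.5% lower. In either direction this made 31.5% of the members and 29.8% of all genes, so the share called was near the background. In 30 members (55.6%) every OA-AP library lay above both controls, and in 5 (9.26%) below, against 32.9% and 29.4% of all genes. The median log2 fold change was 0.32, a 1.25-fold difference, beside 0.04 for all genes tested. The summed level was 634 and 622 CPM in control pancreas and 740, 738 and 759 CPM in OA-AP.

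The members' median log2 fold change in the pancreas was 0.32 with all libraries and 0.23 to 0.43 with 1 left out. It was 0.38 without control replicate 1 and 0.43 without control replicate 2, fits in which 1 control library remained. The number called in the pancreas depended on single libraries, and the part of having fewer libraries in this was not tested. Without control replicate 1 it was 5 higher and 0 lower, without control replicate 2 it was 3 higher and 0 lower, and without OA-AP replicate 1 it was 6 higher and 1 lower. Rrp12 and Ddx21 kept their call whichever library was left out, Heatr1 lost it without control replicate 1 and Rcl1 without control replicate 2. Scaled by library totals only, without TMM factors, 41 members were called higher and 0 lower, but the median of all genes tested then also stood at a log2 fold change of 0.75. Relative to that median the members stood 0.28 higher, the same as with TMM factors. In the same comparison 17 of 25 acinar genes tested were called lower, and whether this bears on the members' change was not tested. Factors computed without acinar and very abundant genes gave 15 members higher and 2 lower.

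**Figure D3:**
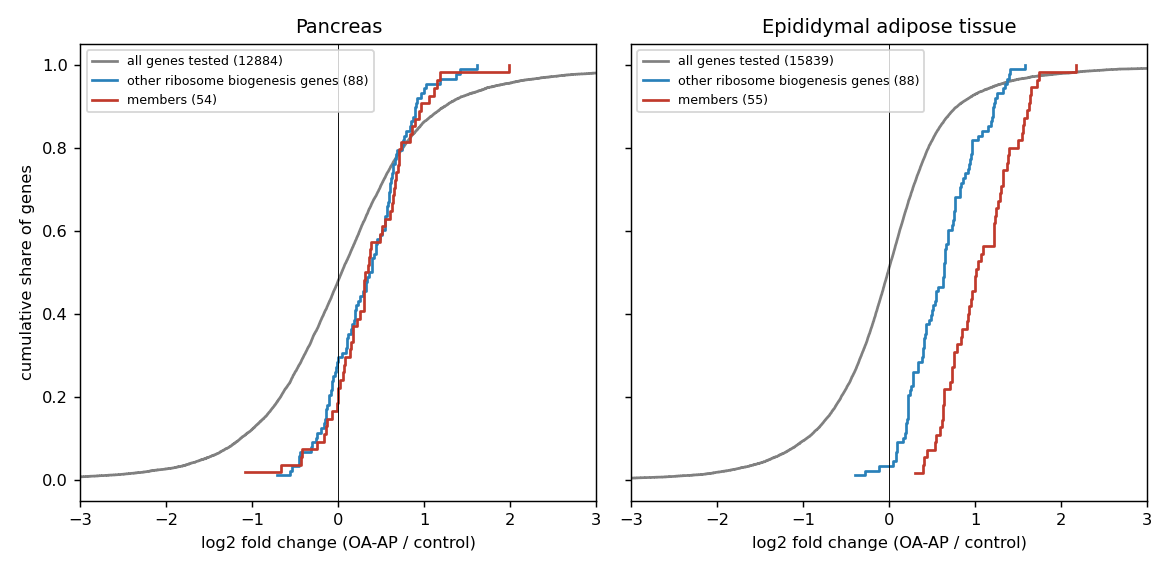
Cumulative share of genes (vertical axis) by log2 fold change between OA-AP and control (horizontal axis, cropped at -3 and 3) for all genes tested, 88 other ribosome biogenesis genes and the members. In adipose tissue the whole curve of the members lies to the right of 0, with a median of 1.00 against 0.63 for the other ribosome biogenesis genes and -0.01 for all genes, and in the pancreas it lies close to that of the other ribosome biogenesis genes.

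Markers of other cell types also differed between the groups. Neutrophil genes summed to 9.45, 14.3 and 15.7 CPM in control and 158, 144 and 179 CPM in OA-AP adipose tissue, with S100a8 at 0.849, 1.23 and 1.97 CPM in control and 31.05, 34.95 and 36.7 CPM in OA-AP. All 6 of the 8 neutrophil genes that were tested there were called, 5 higher and Elane lower, and Ly6g and Mpo stayed under 1 CPM in every adipose library. Fibroblast genes summed to between 3501 and 4381 CPM in control and between 2073 and 2698 CPM in OA-AP, T and B lymphocyte genes to between 10.2 and 40.5 CPM and between 2.90 and 4.95 CPM, and macrophage genes to between 1123 and 1452 CPM and between 1150 and 1787 CPM. Proliferation genes overlapped between the groups, with 67.1 to 83.2 CPM in control and 80.7 to 98.0 CPM in OA-AP, and 1 of the 11 tested was called higher. In the pancreas neutrophil genes summed to 0.944 and 1.89 CPM in control and 12.5, 3.26 and 95.1 CPM in OA-AP. The OA-AP library with 95.1 CPM, replicate 3, held the highest level of its group in 31 of 54 members and the lowest in 13. The share of all genes highest in that library was not counted. Without that library 12 members were called higher in the pancreas. None of the 5 neutrophil genes tested in the pancreas was called by edgeR, and 1 had an unadjusted p under 0.05. Adipocyte genes summed to 37.9 and 54.1 CPM in control and 90.1, 75.2 and 103 CPM in OA-AP pancreas, and islet genes to 989 and 1211 CPM in control and 1654, 1363 and 1505 CPM in OA-AP, with 2 of 4 and 2 of 8 genes tested called higher. The mesothelial list summed to 213 and 193 CPM in control and 666, 487 and 1181 CPM in OA-AP pancreas, again highest in replicate 3. Its keratins Krt8 and Krt18, which other epithelial cells also express, were called higher, and its other 4 genes, Msln, Upk3b, Wt1 and Lrrn4, were not called. The part of these cell types in the members' change was not tested.

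With TMM factors the log2 fold change in OA-AP was higher in adipose tissue than in the pancreas for 49 of the 54 members measured in both. Called higher in both tissues were 13 members: Mybbp1a, Gar1, Wdr43, Heatr1, Pwp2, Noc4l, Rrp12, Pes1, Nop2, Nop16, Nip7, Noc2l and Ddx21. They are 13 of the 54 members, where 465 of the 11978 genes tested in both tissues (3.88%) were called higher in both. Their median log2 fold change was 0.93 in the pancreas and 1.24 in adipose tissue. Of the 13, only Rrp12 and Ddx21 kept the pancreas call whichever pancreas library was left out. Nop2, Nop16 and Pwp2 also lost it with DESeq2. A further 34 were called higher in adipose tissue and not in the pancreas, beside Wdr74, which was tested in adipose tissue alone. Rrs1 and Rcl1 were called higher in the pancreas alone, and Dkc1 was called lower there alone. Rrs1 also rose in adipose tissue, with groups apart, but under the fold limit (1.45-fold, edgeR adjusted p = 0.0153). Imp3, Nop10 and Riok1 were called in neither.

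The difference itself was tested as the tissue by condition term of a fit with all 11 libraries and 17046 genes. In it 22 of 54 members (40.7%) were called with a lower change in the pancreas and 0 with a higher one, where 10.4% of all genes were lower and 10.2% higher. Riok2 was left out because the tables give it different identifiers, and Wdr74, at 0 in the pancreas, could not be called. The median of the members' term was -0.68, beside 0.06 for all genes. All 4 box C/D members, both RNA polymerase I subunits and 3 of 4 chaperones were among the 22, but 3 of 15 processome members and 0 of 3 helicases were. Of the 34 genes called higher in adipose tissue alone 18 were among the 22, and of the 13 called higher in both tissues 1, Nop16. Without pancreas control replicate 2 the count was 13 lower and 0 higher. With library totals alone 7 members were called higher and 3 lower, but the median of all genes then stood at 0.88 and that of the members at 0.16. Relative to all genes the members stood at -0.71 with library totals and at -0.74 with TMM factors.

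The 3 members with the smallest p in this test were Gnl3, Nop56 and Nolc1. Gnl3, at chr14:31012433-31019152, had 14.1 and 13.5 CPM in control and 11.7, 10.8 and 12.2 CPM in OA-AP pancreas, so all 3 OA-AP libraries lay below the controls, against its rise in adipose tissue. Its difference between tissues was -1.81 ± 0.19 SE on the log2 scale (edgeR adjusted p = 9.74e-05). The difference was -1.71 ± 0.22 SE for Nop56 (edgeR adjusted p = 0.000331), at chr2:130274430-130279313. It was -1.48 ± 0.22 SE for Nolc1 (edgeR adjusted p = 0.000905), which had 9.35 and 11.96 CPM in control and 10.3, 12.7 and 12.1 CPM in OA-AP pancreas. These 3 calls held under all 20 other settings, library totals included.

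**Figure D4:**
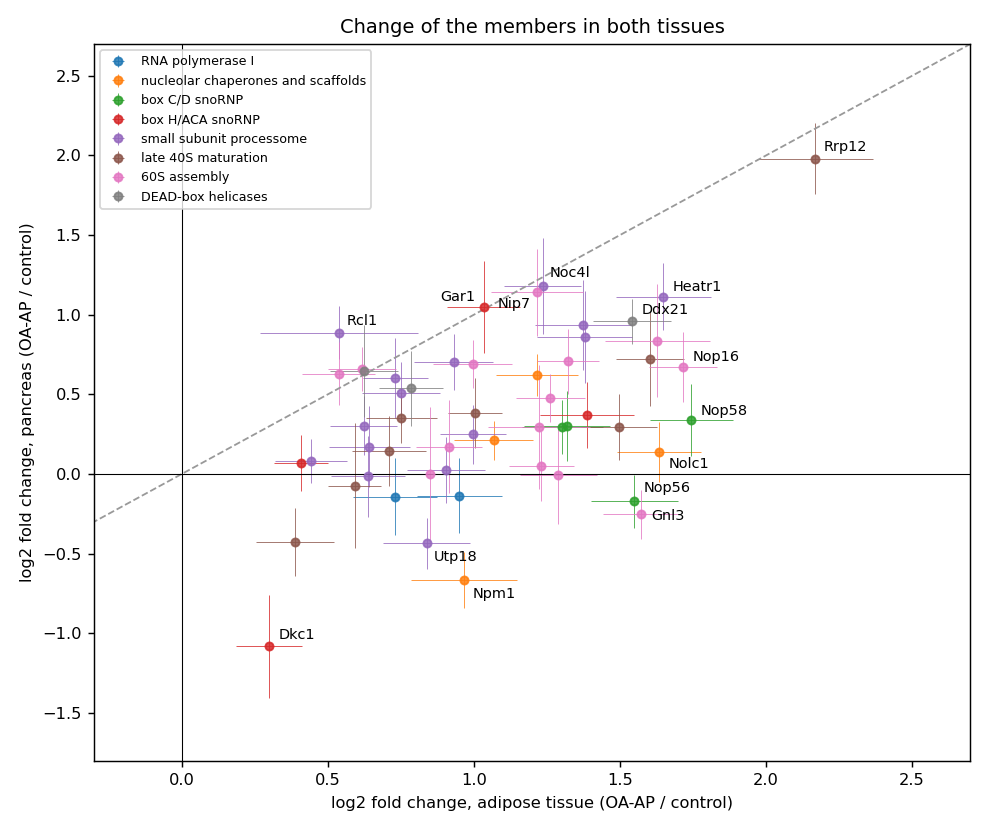
Log2 fold change of each of the 54 members in the pancreas (vertical axis) against adipose tissue (horizontal axis), with standard errors as thin lines, coloured by role; the dashed line marks equal change. With TMM factors 49 of 54 points lie below the dashed line, and Npm1 and Dkc1 lie lowest.

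Levels can be compared between genes only per length, and RPKM (CPM per kilobase of the deposited gene length) were used for this. For most members that length equalled all annotated exon bases of the gene, merged over its transcripts, such as 10188 for Ncl. It can be longer than any single transcript, so the order of the genes also depends on the annotation. In control adipose tissue Npm1 had the highest RPKM of the 55, 56.9 ± 9.85 (SD, n = 3). Nop10 followed at 40.4 ± 0.888, Imp3 at 31.8 ± 0.420 and Ncl at 21.0 ± 2.52 RPKM, each apart from the next by more than its spread. Rcl1 at 20.2 ± 3.12 RPKM did not differ from Ncl beyond the spread. Wdr12 was lowest at 1.12 ± 0.117 RPKM. In control pancreas Npm1 also led, at 34.6 ± 3.11 RPKM (SD, n = 2), followed by Imp3 at 25.5 ± 0.801 RPKM. Nhp2, Ncl and Nop10 followed at 11.2 ± 1.30, 10.7 ± 0.312 and 10.2 ± 0.371 RPKM and did not differ beyond their spread. RPKM are not set side by side between the tissues here, because the acinar genes fill most of the pancreas libraries.

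Between the control tissues, leaving out Wdr74 with its 0 counts, 21 of 53 members (39.6%) were called higher with TMM factors in pancreas than in adipose tissue. Lower were 2 (3.77%), Dkc1 and Ddx10, where 26.0% of all genes were higher and 29.4% lower. With library totals alone 0 were called higher and 53 lower, and the median log2 difference of all genes also moved, from -0.22 to -2.67. Relative to all genes the median of the 54 members, Wdr74 included, stood 0.28 higher with TMM factors and 0.26 higher with library totals.

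A wider list of 88 other genes of ribosome biogenesis was written from the known pathway, also with earlier results of these data known. It is therefore no independent check. The list moved the same way, by less than the members in adipose tissue and by about as much in the pancreas. In adipose tissue 47 (53.4%) were called higher and 0 lower, with a median log2 fold change of 0.63. Of all genes tested there 12.1% were called higher and 13.0% lower. In the pancreas 18 (20.5%) were called higher and 0 lower, with a median of 0.37. Of the members 27.8% were called higher there, with a median of 0.32. Of all genes tested 16.2% were called higher and 13.5% lower, so the list's share called higher was near the background. In either direction 20.5% of the list was called, under the 29.8% of all genes. Ftsj3, a methyltransferase of 60S precursors, had 43.1, 44.9 and 42.5 CPM in control and 126, 99.7 and 106 CPM in OA-AP adipose tissue (2.55-fold, edgeR adjusted p = 0.00045). Rpl7l1, related to the ribosomal protein Rpl7, had 46.9, 47.9 and 44.4 CPM in control and 91.3, 86.3 and 91.2 CPM in OA-AP adipose tissue (1.93-fold, edgeR adjusted p = 0.000508). Both genes' groups were far apart.

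In the pancreas Sbds and Nop9 had the smallest p of this list. Sbds, which frees the finished 60S subunit from the factor eIF6, had 12.3 and 13.2 CPM in control and 39.4, 30.9 and 46.2 CPM in OA-AP pancreas (3.06-fold, edgeR adjusted p = 0.000936). In adipose tissue Sbds had 91.6, 104 and 104 CPM in control and 109.7, 122 and 108 CPM in OA-AP and was not called, and its change differed between the tissues (log2 difference 1.44, edgeR adjusted p = 0.000934). Nop9, which binds the 18S precursor, had 4.46 and 3.69 CPM in control and 10.3, 10.5 and 10.7 CPM in OA-AP pancreas (2.57-fold, edgeR adjusted p = 0.00174). Among the 13 other genes of RNA polymerase I and its factors, 3 (23.1%) were called higher in adipose tissue, Polr1e, Cd3eap and Taf1c. Of all genes tested 12.1% were called higher there. In the pancreas 1 (7.69%) was called higher, against 16.2% of all genes. This was Ubtf, which binds ribosomal RNA gene promoters. Ubtf had 106, 114 and 106 CPM in control and 88.9, 74.2 and 83.6 CPM in OA-AP adipose tissue, with every OA-AP library below the controls, though under the fold limit. These RNA polymerase I genes were named after their values were seen.

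Myc, the transcription factor known to drive ribosome biogenesis genes, moved in opposite directions. In adipose tissue it had 23.4, 19.9 and 16.95 CPM in control and 77.5, 49.1 and 75.8 CPM in OA-AP (3.36-fold, log2 1.75 ± 0.20 SE, edgeR adjusted p = 0.00154). In the pancreas it had 32.4 and 26.5 CPM in control and 17.1, 18.6 and 17.2 CPM in OA-AP and fell 1.67-fold (log2 -0.74 ± 0.15 SE, edgeR adjusted p = 0.00652). The groups were apart in both tissues. With library totals alone the log2 fold change in the pancreas was -0.04 and not called, but relative to the median of all genes it was -0.79, beside -0.78 with TMM factors. The call was lost without control replicate 1. Its partner Max had 78.8, 63.6 and 62.3 CPM in control and 81.7, 85.4 and 78.8 CPM in OA-AP adipose tissue and was called in neither tissue. Of the 11 genes of the Myc, Max and Mxd list, 2 were called higher in adipose tissue, Myc and Mxd1, and 1 lower, Mycl. In either direction this was 27.3% of the list, near the 25.1% of all genes tested there. Whether Myc acts on the members was not tested.

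Because many members are known Myc targets, their promoters were searched for CACGTG, the E-box that Myc with Max binds, on both strands (the motif reads the same on each). Promoters, from RefSeq on GRCm38.p6, ran from 250 bases before to 50 after the gene start. They were given for 49 of the 55 members, 53 promoters in all. The motif was in 11 of the 53 (20.8%), in 7.15% of all 32851 promoters of that length in 9.52% of those of genes tested in adipose tissue and in 17.4% of those of the other ribosome biogenesis genes. The 11 matches are shown, each with up to 10 bases on either side and with the motif in capitals, 5′ to 3′ on the strand of the gene.
Imp4: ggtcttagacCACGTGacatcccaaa
Nop2: gtccctggatCACGTGtgttccggtg
Grwd1: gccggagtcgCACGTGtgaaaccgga
Ltv1: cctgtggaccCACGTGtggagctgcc
Utp20: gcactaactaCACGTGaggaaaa
Pes1: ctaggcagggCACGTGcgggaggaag
Pno1: tacaaccacgCACGTGttcctct
Mybbp1a: cttctgagccCACGTGtttg
Tsr1: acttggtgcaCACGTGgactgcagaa
Utp18: gagcgccggtCACGTGgcttgcggcg
Wdr43: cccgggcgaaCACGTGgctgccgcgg

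The matches lay from 121 bases before the start (Imp4) to 41 after it (Mybbp1a). Only those of Imp4, Nop2 and Utp18 lay before the start. In adipose tissue 11 of 11 members with the motif and 33 of 38 without it were called higher, with median log2 fold changes of 1.00 and 1.02. In the pancreas 4 of 11 with it and 9 of 37 without it were called higher, with medians of 0.62 and 0.25. These differences were not tested. A match in these letters shows no binding, and a promoter without it says nothing of Myc.

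Nop2 and Utp18 carry the motif close before the start and differed in the pancreas, so the 250 bases before their starts are shown whole. Nop2 rose there (1.63-fold), while Utp18, a processome subunit, had 15.8 and 13.6 CPM in control and 11.1, 10.1 and 11.4 CPM in OA-AP pancreas, lower in each OA-AP library but not called (log2 fold change -0.43 ± 0.16 SE, edgeR adjusted p = 0.068). In adipose tissue both rose (2.5001-fold and 1.79-fold). The Nop2 stretch is chr6:125131633-125131882 on the plus strand and that of Utp18 chr11:93885767-93886016 on the minus strand, both on GRCm38.p6.
Nop2: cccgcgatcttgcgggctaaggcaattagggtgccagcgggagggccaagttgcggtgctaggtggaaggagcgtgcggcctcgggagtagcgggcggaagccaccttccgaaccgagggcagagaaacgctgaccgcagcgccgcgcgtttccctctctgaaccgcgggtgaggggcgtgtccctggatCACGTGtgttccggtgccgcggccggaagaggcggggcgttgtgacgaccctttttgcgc
Utp18: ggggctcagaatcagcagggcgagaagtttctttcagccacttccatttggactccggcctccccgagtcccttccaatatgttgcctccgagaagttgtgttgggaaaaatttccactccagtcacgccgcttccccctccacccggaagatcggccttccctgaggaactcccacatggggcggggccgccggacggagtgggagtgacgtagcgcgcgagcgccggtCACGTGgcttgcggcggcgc

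A second motif, CCGGAA, the core that Ets factors such as Gabpa bind, was searched on both strands and was in 22 of the 53 member promoters (41.5%), in 14.9% of all promoters and in 25% of those of genes tested in adipose tissue. It was in more promoters of the other ribosome biogenesis genes, 62.8%. Another, AAGATGG, the core of the YY1 motif, was in 3 (5.66%), near the 6.34% of all promoters. A CACGTG match can share no base with a match of the other motifs, while AAGATGG and CCGGAA can share up to 2 bases at their ends. The median log2 fold change in adipose tissue was 1.23 in the 21 members with CCGGAA and 0.92 in the 28 without it, and 0.36 and 0.27 in the pancreas.

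Some members carry a second product in their introns. By the GENCODE M21 annotation 7 of the 55 (12.7%) hold snoRNA genes, 21 in all, against 247 of 13753 protein-coding genes tested in adipose tissue (1.8%). Nop56 holds 5, Nop58 4, Ncl, Wdr43 and Gnl3 3 each, Tsr1 2 and Dkc1 1. All of these but Dkc1 were called higher in adipose tissue, and 1, Wdr43, in the pancreas. Of all members tested 89.1% were called higher in adipose tissue and 27.8% in the pancreas. Of all genes tested these shares were 12.1% and 16.2%. The snoRNAs themselves were not measured here. The strand setting of the counting is not given in the sources used here, so genes that share exons with a gene on the opposite strand are uncertain. The share was 37.3% of exon bases for Tbl3 (with Noxo1), 32.3% for Tsr1 (with Srr), 20.9% for Noc2l (with Samd11), 11.5% for Utp14a, 10.6% for Riok2 and 9.37% for Bysl (with Ccnd3).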

How the data were processed

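RNA was sequenced from pancreas (2 control and 3 OA-AP libraries) and epididymal adipose tissue (3 and 3). The authors trimmed reads with Trim Galore 0.6.6, checked them with fastp 0.20.1, mapped them to GRCm38 with STAR and counted them with featureCounts 2.0.1. They deposited whole-number counts per gene, without normalization. The annotation release is not given in the sources used here. Gene lengths came from the pancreas table.

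Genes were filtered with filterByExpr, scaled with TMM factors and tested per tissue with the robust quasi-likelihood test of edgeR 4.0.16 (R 4.3.3), and all 11 libraries together for the tissue by condition term. P-values were adjusted by the Benjamini-Hochberg method over all genes tested, and the call needed 0.05 and a fold of 1.5. The SE of a log2 fold change is its size over the square root of F. The tests were also run on simulated counts with the same spread for every gene, which cannot show how often genes are falsely called here. Adipose rows were matched by gene ID, and Riok2 by symbol.

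The members, their role groups and the other gene lists were written by hand and chosen with earlier results of these data known. Genes were named by a rule: per role group and tissue, the 3 called genes with the smallest p, or the 1 with the smallest p where none was called, then those called in both tissues, the 3 smallest p of the tissue by condition term, the 2 smallest p per tissue of the other biogenesis genes, and Myc. Genes named outside this rule were chosen after their values were seen. Alternatives were DESeq2 1.42.0, its size factors, library totals, factors without acinar genes, no filter or a mean count of 10, a fold of 2 or none, each library left out and a replicate block. Counts differed between replicates by more than counting noise, with a chi-square per degree of freedom of 7.24 or more.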

Additional observations from a re-analysis of the deposited data

Results flagged for a closer look

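The change in OA-AP differed between the tissues, by the tissue by condition term of edgeR's quasi-likelihood test, in 22 members, each with a lower change in the pancreas than in adipose tissue. Scaled by library totals only, 3 members were lower and 7 higher, but the median of all genes then moved from 0.06 to 0.88. Relative to it the members' median stood at -0.71, and at -0.74 with TMM factors. Values are differences of log2 fold changes (pancreas minus adipose tissue). They were -1.08 for Polr1a and -0.86 for Polr1b of RNA polymerase I. Of the chaperones they were -0.85 for Ncl, -1.62 for Npm1 and -1.48 for Nolc1. The snoRNP proteins stood at -1.71 for Nop56, -1.39 for Nop58, -0.99 for Fbl, -1.003 for Rrp9, -1.37 for Dkc1 and -1.003 for Nhp2. On the way to the small subunit they were -1.26 for Utp18, -0.74 for Utp14a, -0.87 for Nat10, -1.19 for Tsr1, -0.87 for Bysl and -0.81 for Riok1. On the way to the large subunit they were -0.77 for Bop1, -1.28 for Wdr12, -1.03 for Nop16, -1.17 for Ebna1bp2 and -1.81 for Gnl3.

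The same term was -2.48 for Myc, the only gene named here whose change was called higher in adipose tissue and lower in the pancreas besides Npm1. With library totals alone neither Myc nor Npm1 was called in the pancreas.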

How the results depend on the processing

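In adipose tissue 40 to 52 members were called higher under each setting but a fold of at least 2, with which there were 28, and 0 were lower under all of them. Leaving out 1 library gave 44 to 51 there. In the pancreas it gave 3 to 16 higher and 0 to 1 lower, a fold of at least 2 gave 5 higher and 1 lower, library totals alone 41 and 0, and DESeq2 11 and 2. For the tissue by condition term a fold of at least 2 gave 14 lower, library totals alone 7 higher and 3 lower, and leaving out 1 library 13 to 24 lower. Between control tissues a fold of at least 2 gave 7 higher and 1 lower, library totals alone 0 and 54, and leaving out 1 library 17 to 21 and 1 to 4. Wdr74, which has no level in the pancreas, is the 1 lower with a fold of at least 2 and is among the 54.

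Signs turned with library totals alone for Polr1b (0.58) and Npm1 (0.0495) in the pancreas and for the members' median of the tissue by condition term (0.16) and between control tissues (-2.41). The last median was also -0.0546 with no filter, and ran from -0.00137 without adipose control replicate 1 to 0.267 without pancreas control replicate 1. The cause was not tested for these. With library totals the median of all genes tested moved to 0.75 in the pancreas, -0.17 in adipose tissue, 0.88 for the tissue by condition term and -2.67 between control tissues. Relative to it Polr1b stood at -0.16, Npm1 at -0.70 and the members' medians at -0.71 and 0.26, and with TMM factors at -0.18, -0.71, -0.74 and 0.28. Of the values of named genes under other settings, 463 of the adipose ones kept their call and direction and 17 lost the call, while in the pancreas 229 kept both, 61 lost the call, 1 gained it and 3 turned.

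Correlations between the deviations of same-numbered samples from their group means ran from -0.163 to 0.09. Such deviations cancel within a group, and those of the 2 control pancreas libraries mirror each other. Tissues of 1 animal also need not deviate together, so these values cannot decide whether equal numbers mark paired samples. With a replicate block 49 members were higher in adipose tissue and 16 higher and 1 lower in the pancreas, where Polr1b stood at 0.0123, and 14 were lower for the tissue by condition term. A member such as Pwp2, which was called, had 23 to 105 counts in a pancreas library, and how depth bears on the members not called was not tested.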
